A study of Mus musculus with 20 samples.

Results

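The S-phase and mitosis genes are 43 genes whose transcripts accumulate in dividing cells: 20 act in DNA replication and 23 in mitosis. They were taken from a list of names that was chosen with earlier results of these data known. All 43 were found among the 49671 gene IDs of the RNA count files, and all 43 passed the filter on low counts that left 15185 genes for testing. The cells were hematopoietic stem cells (HSCs), the rare marrow cells from which all blood lineages descend, sorted as lineage-negative, cKit+, Sca1+, CD150+ and CD48- cells from C57BL/6 mice aged 8 weeks. The Control mice were Vav-CRE:Kdm6b+/+ and the Kdm6b-KO mice Vav-CRE:Kdm6bfl/fl. Both groups therefore carried the Vav-driven Cre recombinase, which is active throughout the blood system and removes floxed Kdm6b in mature blood cells as well as in HSCs. Kdm6b encodes a demethylase of lysine 27 on histone H3. RNA was counted in 3 Control and 3 Kdm6b-KO libraries, each labelled as a biological replicate and made from marrow that was pooled from 6 mice, 3 of either sex. Open chromatin was mapped by ATAC-seq, in which a transposase inserts into accessible DNA, in 3 libraries titled Control and 3 titled 6bKO. The genotype label of all 6 ATAC libraries reads wild-type, so their groups rest on the titles alone. The other 8 of the 20 samples were not analysed here.

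In a cycling cell, Cdc6 and Cdt1 load the Mcm2 to Mcm7 helicase onto origins in G1, and Cdc45, the GINS complex and cyclin E with Cdk2 then help to start replication, while ribonucleotide reductase and thymidylate synthase supply the nucleotides. Mitosis genes are transcribed later, in G2, and encode cyclin B with Cdk1, the Aurora and Polo-like kinases, spindle and kinetochore proteins, and the machinery that ends mitosis. E2F factors drive many replication genes, and a complex of MuvB with B-Myb or Foxm1 drives many mitosis genes through promoter elements that include the cell cycle genes homology region (CHR). HSCs in unperturbed marrow are mostly quiescent, and these transcripts are widely used to describe how many of them are in cycle.

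The labels and depth were checked on the whole libraries. The 6 RNA libraries held 6793873 to 19336121 counts assigned to genes, so that 3 counts were worth 0.148 to 0.461 CPM (counts scaled to a common library size, with TMM as the correction for composition), and no member had fewer than 45 counts in any library. Kdm6b itself had 92.0, 282 and 221 CPM in the Control libraries and 142, 202 and 191 CPM in the Kdm6b-KO libraries (log2 fold change -0.15, SE 0.35, adjusted p = 0.882), and the groups overlapped. Whole-gene counts may include exons outside the deleted part, so they do not check the genotype. Transcripts of the sorted surface proteins were present in all 6 libraries, at 49.7 to 80.8 CPM for Slamf1 (CD150), 781 to 2169 CPM for Kit and 51.2 to 99.0 CPM for Ly6a (Sca1), and Cd48 had 4.60 to 16.7 CPM. Kdm6b-KO replicate 1 stood apart from the other Kdm6b-KO libraries in markers of neutrophils: the summed CPM of 12 neutrophil markers was 3691, 1194 and 2134 in the Control libraries and 4335, 195 and 192 in the Kdm6b-KO libraries.

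Across the 43 genes, values in Kdm6b-KO HSCs mostly lay below those in Control HSCs, by less than a factor of 2 for each gene, and no single gene was called. Of the 43, 33 had a negative log2 fold change (Kdm6b-KO over Control), 76.7% against 50.1% of all tested genes. As the members were chosen with earlier results of these data known, this share is a description only. The median log2 fold change was -0.33 over the 20 DNA replication genes and -0.42 over the 23 mitosis genes, where the median over all tested genes was -0.0012. The most negative values included Rrm2 and Tyms, enzymes of nucleotide supply, and the kinetochore and spindle genes Cenpe and Nusap1, whereas Mcm2 and Foxm1 had positive log2 fold changes.

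edgeR's quasi-likelihood test called 0 of the 43 members at an adjusted p under 0.05, where it called 0.461% of all tested genes (70 of 15185, 33 lower and 37 higher). At an unadjusted p under 0.05, 15 members were lower and 1 was higher, and 7.22% of all tested genes were lower by that rule. limma-voom called 0 members. DESeq2 called 5, all lower: Rrm2, Ccne2, Tyms, Cenpe and Nusap1, with 438 genes called in all. The 3 Kdm6b-KO values lay below all 3 Control values for 18 members, 7 of replication and 11 of mitosis, against 9.49% of all tested genes, and above them for 1 member, Foxm1. In either direction, 20.5% of all tested genes did not overlap. On library totals in place of TMM, an alternative chosen after seeing the data, 6 members lay below Control without overlap (Rrm2, Tyms, Ccne2, Cenpe, Nusap1 and Tpx2), against 5.06% of all tested genes, so the statements on overlap below hold for TMM-scaled CPM. That scaling moved the median log2 fold change of all genes to 0.147 and gave 30 lower and 70 higher calls over all genes in place of 33 and 37, with medians of -0.18 for the replication and -0.27 for the mitosis genes.

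**Figure D1:**
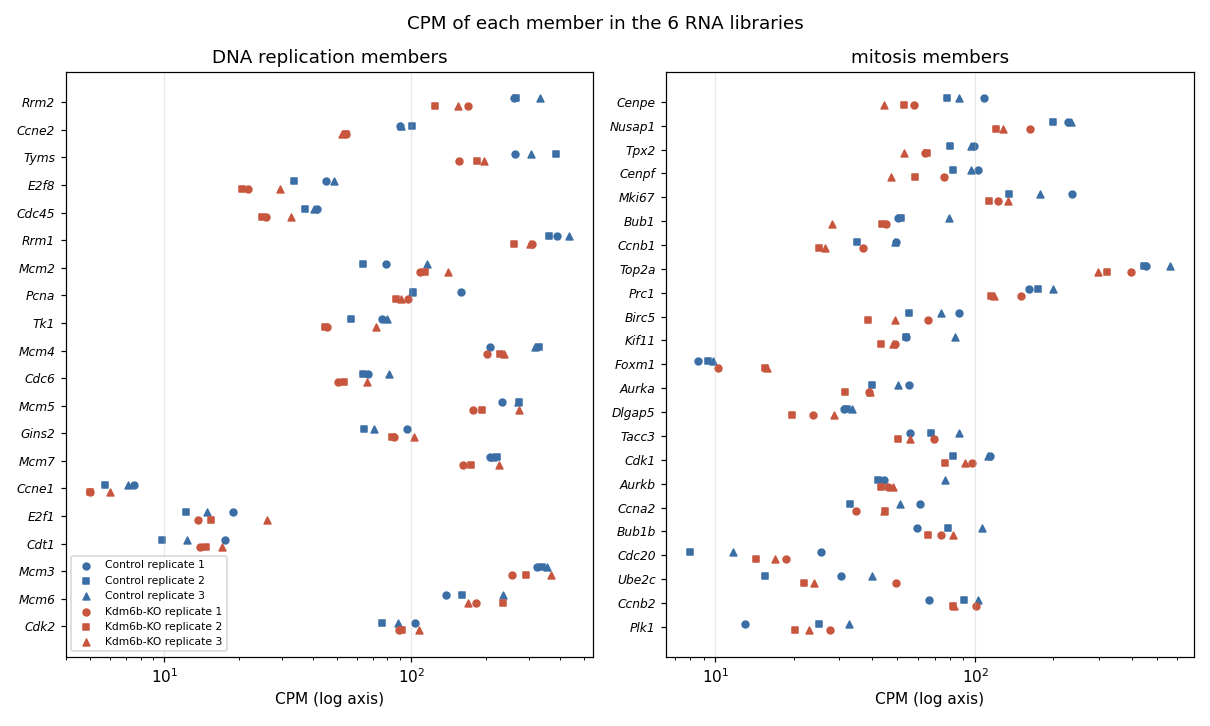
CPM on a log axis of each of the 20 DNA replication genes (left) and 23 mitosis genes (right), ordered by unadjusted p with the smallest at the top; blue points are the 3 Control and red points the 3 Kdm6b-KO libraries, with a marker shape per replicate. Near the top of both panels the red points lie to the left of the blue ones, and towards the bottom they mix.

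Summed over each set, the mean level was lower in the Kdm6b-KO libraries. The summed CPM of the replication genes was 2822, 2964 and 3213 in the Control and 2225, 2301 and 2671 in the Kdm6b-KO libraries. For the mitosis genes it was 2198, 1914 and 2450.1 in the Control and 1820.0, 1485 and 1526 in the Kdm6b-KO libraries. With TMM scaling every Kdm6b-KO library lay below every Control library in both sums. On library totals the groups overlapped in both: the replication sum of Kdm6b-KO replicate 3 was 2792, above Control replicates 1 and 2 at 2704 and 2642, and the mitosis sum of Kdm6b-KO replicate 1 was 1905, above Control replicate 2 at 1706. Control replicate 3 held the highest value of 16 members and Kdm6b-KO replicate 2 the lowest of 16. In bulk RNA, fewer cycling cells and less of these transcripts per cell cannot be told apart.

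Markers of other blood cells differed between the same libraries. The summed CPM of 12 erythroid markers was 436, 265 and 372 in the Control libraries and 287, 71.4 and 78.8 in the Kdm6b-KO libraries, with overlap. That of 7 mast cell and basophil markers was 14.8 to 81.6 and 5.34 to 12.4, without overlap. The 12 neutrophil markers spanned 1194 to 3691 over the Control libraries and 192 to 4335 over the Kdm6b-KO libraries. Kdm6b-KO replicates 2 and 3 had the lowest erythroid, neutrophil and mitosis sums of the 6 libraries. The 7 T cell markers summed to 41.5 to 62.5 over the Control libraries and to 66.1 to 71.4 over the Kdm6b-KO libraries, higher in the latter without overlap. Most of that sum was Lat, at 37.5, 45.7 and 57.6 CPM in Control and at 65.3, 62.8 and 58.4 CPM in the others, and Cd2 had 0 counts in all 6 libraries. The sums of the HSC, multipotent progenitor, monocyte, megakaryocyte and B cell markers overlapped between the groups. Kdm6b-KO replicate 1 had the highest neutrophil sum of all 6 libraries and the lowest replication sum, 2225. Without that library the medians were -0.26 for the replication and -0.45 for the mitosis genes. The libraries that remain then include the pair with the lowest erythroid and neutrophil sums. The part of other cells in the difference was not tested.

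**Figure D2:**
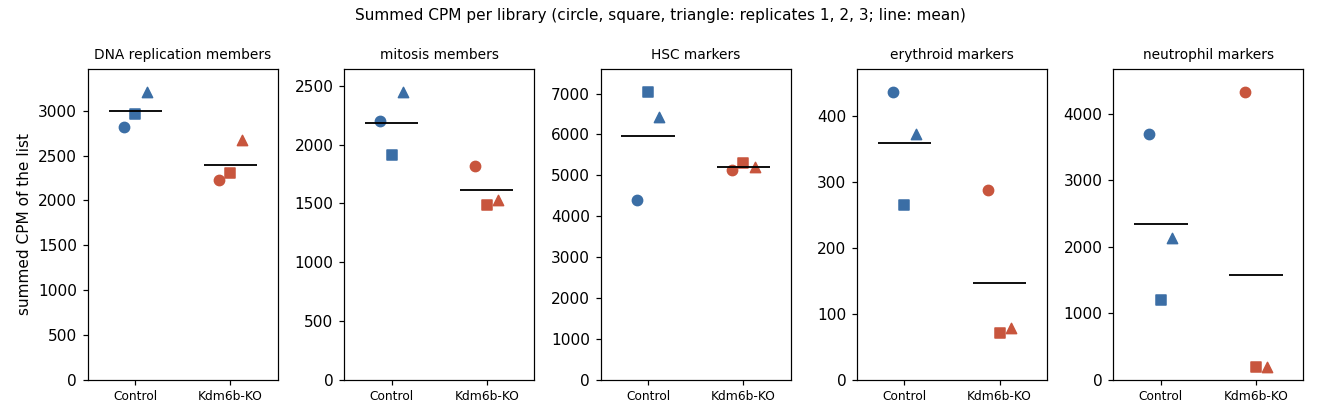
Summed CPM per library of the DNA replication genes, the mitosis genes and 3 marker lists (each panel from 0); blue is Control, red is Kdm6b-KO, marker shapes are replicates 1, 2 and 3, and lines are group means. The replication sums run from 2822 to 3213 for Control and from 2225 to 2671 for Kdm6b-KO, without overlap at this TMM scaling but with overlap on library totals, while the HSC, erythroid and neutrophil marker sums overlap between the groups.

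The promoters of the members with the smallest p show which elements these genes carry. They are taken from RefSeq (GRCm38.p6, the assembly of mm10) and run 5′ to 3′ on the strand of the gene. Each spans 250 bases before to 30 after a start annotated there. The E2f8 stretch lies wholly inside the annotated gene and does not reach its outer start. The leading 3 per set that are in the table and had an ATAC peak on them in any of the 6 libraries were chosen. Such a peak was found in 3 libraries for E2f8 and in all 6 for each other printed promoter. Within 1 kb of the outer start of E2f8 a peak was found in all 6. Capitals mark exact matches, on either strand, to an E2F element (TTTCCCGC, TTTCGCGC, TTTGCCGC or TTTGGCGC), a CHR (TTTGAA or TTCGAA) or the CCAAT box (CCAAT). Mcm6 and Top2a were added after the matches were seen, as the replication promoter with the most E2F matches and the mitosis promoter with the most CHR matches.
Rrm2 (chr12:24708004-24708283, plus strand): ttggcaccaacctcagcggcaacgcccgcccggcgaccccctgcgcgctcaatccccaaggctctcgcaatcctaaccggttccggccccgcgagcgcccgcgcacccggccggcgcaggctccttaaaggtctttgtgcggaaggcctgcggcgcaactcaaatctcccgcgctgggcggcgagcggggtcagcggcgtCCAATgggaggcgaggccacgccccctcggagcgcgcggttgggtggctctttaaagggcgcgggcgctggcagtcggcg
Tyms (chr5:30073596-30073875, minus strand): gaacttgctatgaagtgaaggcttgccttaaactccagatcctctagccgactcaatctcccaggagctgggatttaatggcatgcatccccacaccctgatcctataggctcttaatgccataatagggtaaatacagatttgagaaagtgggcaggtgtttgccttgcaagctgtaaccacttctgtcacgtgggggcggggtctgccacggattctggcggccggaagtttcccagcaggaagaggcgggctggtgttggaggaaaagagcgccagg
E2f8 (chr7:48881567-48881846, minus strand): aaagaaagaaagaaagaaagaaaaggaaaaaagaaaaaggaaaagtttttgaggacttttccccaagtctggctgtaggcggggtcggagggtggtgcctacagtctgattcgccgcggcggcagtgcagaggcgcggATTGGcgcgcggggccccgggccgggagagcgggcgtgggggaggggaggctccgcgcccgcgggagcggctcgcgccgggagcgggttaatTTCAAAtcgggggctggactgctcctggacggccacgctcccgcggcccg
Mcm6 (chr1:128359676-128359955, minus strand): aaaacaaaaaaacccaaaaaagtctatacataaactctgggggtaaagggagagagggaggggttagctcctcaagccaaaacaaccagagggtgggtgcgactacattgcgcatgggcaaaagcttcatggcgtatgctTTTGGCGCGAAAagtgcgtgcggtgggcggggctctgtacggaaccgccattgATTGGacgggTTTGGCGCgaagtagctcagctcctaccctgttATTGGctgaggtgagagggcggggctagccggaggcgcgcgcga
Cenpe (chr3:135212313-135212592, plus strand): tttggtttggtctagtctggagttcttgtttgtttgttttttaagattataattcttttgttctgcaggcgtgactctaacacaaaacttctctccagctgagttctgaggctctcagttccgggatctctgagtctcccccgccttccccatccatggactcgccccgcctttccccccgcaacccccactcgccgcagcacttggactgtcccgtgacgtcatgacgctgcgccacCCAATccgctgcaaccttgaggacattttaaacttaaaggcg
Nusap1 (chr2:119618048-119618327, plus strand): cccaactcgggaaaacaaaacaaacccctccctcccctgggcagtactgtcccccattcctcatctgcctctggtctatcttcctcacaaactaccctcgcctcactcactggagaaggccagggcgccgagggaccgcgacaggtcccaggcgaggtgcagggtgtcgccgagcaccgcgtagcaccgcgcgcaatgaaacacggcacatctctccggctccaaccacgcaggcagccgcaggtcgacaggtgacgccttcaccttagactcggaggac
Cenpf (chr1:189688057-189688336, minus strand): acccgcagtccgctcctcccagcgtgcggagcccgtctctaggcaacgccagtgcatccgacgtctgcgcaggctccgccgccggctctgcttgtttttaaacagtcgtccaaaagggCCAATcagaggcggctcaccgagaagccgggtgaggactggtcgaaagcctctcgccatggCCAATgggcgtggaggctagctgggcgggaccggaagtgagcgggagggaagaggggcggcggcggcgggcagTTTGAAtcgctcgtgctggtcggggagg
Top2a (chr11:99024160-99024439, minus strand): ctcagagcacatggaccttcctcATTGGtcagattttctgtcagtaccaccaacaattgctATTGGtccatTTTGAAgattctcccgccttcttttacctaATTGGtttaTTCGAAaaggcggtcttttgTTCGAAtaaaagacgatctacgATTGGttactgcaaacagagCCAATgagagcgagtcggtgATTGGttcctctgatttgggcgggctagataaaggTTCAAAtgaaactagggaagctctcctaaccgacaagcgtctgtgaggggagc

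All promoters in the table were searched for the same letters. RefSeq promoters of 300 bases, from 250 before to 50 after the start, were found for 35 of the 43 members, 17 of replication and 18 of mitosis. Mcm7 and Prc1 have several promoters there, and a member was counted once, with a match in any of its promoters. For E2f8, E2f1, Cdc6 and Aurka the window lies wholly inside the annotated gene, so bases before its outer start were not searched. The shares over all are of single promoters, so the units differ. An E2F match was present in 7 of 17 replication members (41.2%) and in 1 of 18 mitosis members, Cdk1. It was present in 2.26% of the 32851 promoters in the table. A CHR match was present in 4 of 17 replication and 13 of 18 mitosis members (72.2%), against 19.2% of all promoters. The CCAAT box was found in 11 of 17 and 15 of 18 members, against 37.4% of all promoters. A match is a description of the letters and not of a bound factor. In the printed set, the Tyms and Nusap1 promoters held none of these letters, Rrm2 and Cenpe held 1 CCAAT box each, and the Mcm6 promoter held 3 E2F matches, of which a pair overlaps.

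The 8 members with an E2F match had log2 fold changes from -0.32 to 0.21, with a median of -0.17, and the 27 without one from -0.93 to 0.49, with a median of -0.45. The median was -0.41 for the 17 members with a CHR match and -0.36 for the 18 without, but the order differed by set. Among mitosis genes it was -0.41 for the 13 with a match and -0.60 for the 5 without. Among replication genes it was -0.36 for the 4 with a match and -0.32 for the 13 without. Rrm2, Tyms, E2f8 (window inside the gene), Cenpe and Nusap1, all near the lower end of the range, had no E2F match in this window. The same held for 27 of the 35 members with a promoter and for 17 of the 18 mitosis genes. Among replication genes the median was -0.15 for the 7 with an E2F match and -0.42 for the 10 without. These medians are given as a description, with no test.

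**Figure D3:**
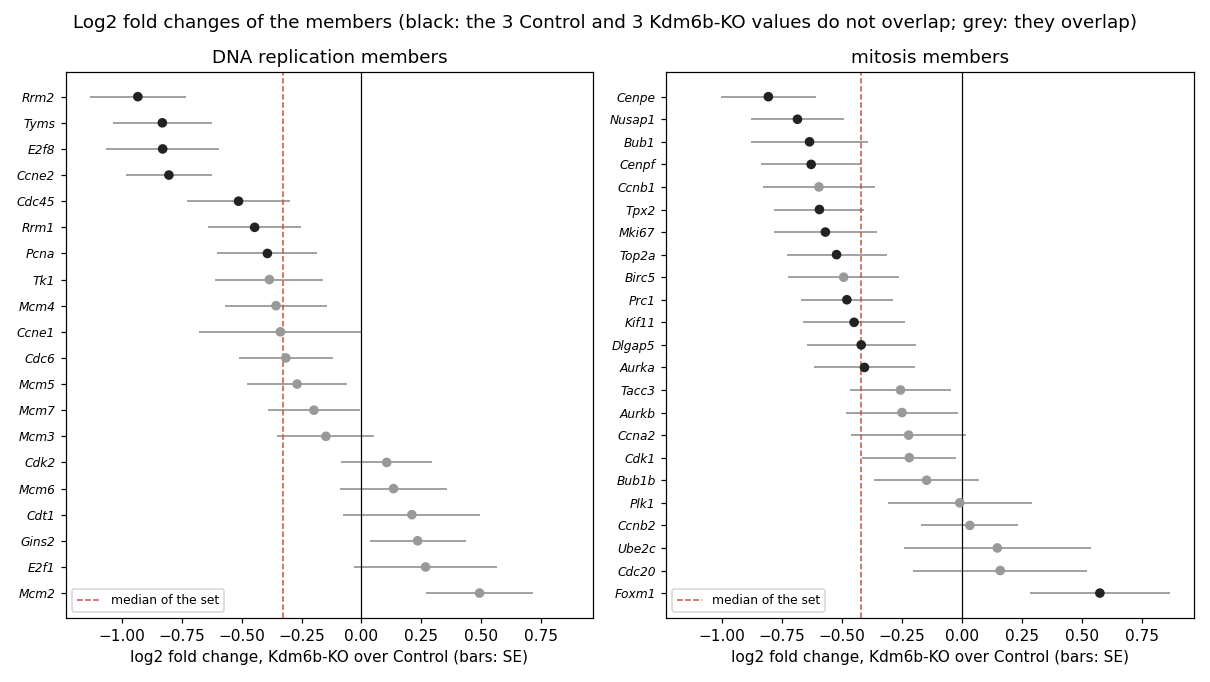
Log2 fold change (Kdm6b-KO over Control) of each DNA replication gene (left) and mitosis gene (right), with bars of 1 SE; black points mark genes whose Control and Kdm6b-KO values do not overlap in TMM-scaled CPM, and the dashed line is the median of the set. Values run from -0.93 for Rrm2 to 0.49 for Mcm2 on the left and from -0.81 for Cenpe to 0.58 for Foxm1 on the right.

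The 4 nucleotide supply genes all had negative log2 fold changes, against 50.1% of all tested genes. In 3 of them the Kdm6b-KO values were lower without overlap, against 9.49% of all tested genes. On library totals only Rrm2 and Tyms of these stayed without overlap. This group and the later groups of members by function were formed with the values known, so their shares are a description only. Rrm2 (chr12:24708254-24714146), the S-phase subunit of ribonucleotide reductase, had 262, 264 and 331 CPM in the Control libraries and 169, 125 and 155 CPM in the Kdm6b-KO libraries, a level 1.91-fold lower than in Control (log2 fold change -0.93, SE 0.20, adjusted p = 0.0591). The highest Kdm6b-KO value was well under the lowest Control value. Rrm1 (chr7:102441695-102469771), the large subunit of the same enzyme, had 389, 360.5 and 435 CPM in the Control libraries and 308, 259 and 303 CPM in the Kdm6b-KO libraries (log2 fold change -0.45, SE 0.19, adjusted p = 0.309), again without overlap. Tyms (chr5:30038546-30073645), thymidylate synthase, had 262, 387 and 305 CPM in the Control libraries and 156, 184 and 197 CPM in the Kdm6b-KO libraries, 1.78-fold lower (log2 fold change -0.83, SE 0.21, adjusted p = 0.106). All 3 Kdm6b-KO libraries lay below all 3 Control libraries. Tk1, the S-phase thymidine kinase of the salvage route, had 75.7, 57.1 and 79.5 CPM in the Control libraries and 45.7, 44.8 and 71.9 CPM in the Kdm6b-KO libraries (log2 fold change -0.38, SE 0.23, adjusted p = 0.450). Kdm6b-KO replicate 3 was close to the Control values there, and the groups overlapped. Tk1 overlaps the coding gene Afmid. Without Control replicate 1, Rrm2 and Tyms were called (adjusted p = 0.0155 and 0.0188), within ranges over 14 alternatives of 0.00189 to 0.288 and 0.0114 to 0.378.

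Cyclin E and the E2F genes had differing values. Ccne2 (chr4:11190433-11204779), a cyclin E, had 90.3, 101 and 90.5 CPM in the Control libraries and 54.5, 54.6 and 52.4 CPM in the Kdm6b-KO libraries, 1.75-fold lower (log2 fold change -0.80, SE 0.18, adjusted p = 0.0716). Its 3 Kdm6b-KO values were nearly the same and all far under the Control values. Without Control replicate 1 it was called (adjusted p = 0.0225, range 0.00568 to 0.301). Its paralog Ccne1, with 7.53, 5.72 and 7.09 CPM in the Control libraries and 4.98, 5.01 and 6.03 CPM in the Kdm6b-KO libraries, overlapped between the groups (adjusted p = 0.684). Cdk2, the kinase that both cyclins activate, had 104, 76.1 and 88.7 CPM in the Control libraries and 89.1, 91.8 and 108 CPM in the Kdm6b-KO libraries (log2 fold change 0.11, adjusted p = 0.840). Here the groups lay over each other. E2f8 (chr7:48866429-48882073), a repressor that E2F1 itself induces, had 45.3, 33.5 and 48.8 CPM in the Control libraries and 21.8, 20.6 and 29.3 CPM in the Kdm6b-KO libraries (log2 fold change -0.83, SE 0.24, adjusted p = 0.135), with no overlap. E2f1, the activator, had 18.9, 12.2 and 14.9 CPM in the Control libraries and 13.7, 15.4 and 25.9 CPM in the Kdm6b-KO libraries (log2 fold change 0.27, SE 0.30, adjusted p = 0.717), and Kdm6b-KO replicate 3 alone exceeded the Control range. Without that library the log2 fold change of E2f1 was -0.075. Ccne2 overlaps the coding gene Ints8, Cdk2 the coding gene Pmel, and E2f1 the coding gene Necab3. Whether the counting used strand is not given in the sources used here. How reads in the shared stretches of overlapping genes were counted is therefore not known.

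Licensing and helicase genes had log2 fold changes of both signs, and in each the groups overlapped. Mcm2 (chr6:88883474-88898780), a subunit of the replicative helicase, had 78.8, 63.8 and 115 CPM in the Control libraries and 109, 114 and 141 CPM in the Kdm6b-KO libraries (log2 fold change 0.49, SE 0.22, adjusted p = 0.326). The Kdm6b-KO values were the higher ones except that Control replicate 3 lay among them. Mcm3, the subunit that was among the 3 replication members of highest mean CPM, had 322, 339 and 354 CPM in the Control libraries and 255, 292 and 368 CPM in the Kdm6b-KO libraries (log2 fold change -0.15, adjusted p = 0.774). Mcm4, another of those 3, had 208, 330.2 and 317 CPM in the Control libraries and 203, 229 and 236 CPM in the Kdm6b-KO libraries (log2 fold change -0.36, adjusted p = 0.456). In both genes the lowest value of all was a Kdm6b-KO library, yet the groups overlapped. Mcm5, Mcm6 and Mcm7 had log2 fold changes of -0.27, 0.13 and -0.20, all with overlap, so that the 6 subunits of 1 ring ran from -0.36 to 0.49. Of the loading factors, Cdc6 had a log2 fold change of -0.32 and Cdt1 one of 0.21, with overlap in both. The Mcm7 gene overlaps the coding gene Ap4m1.

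Cdc45 (chr16:18780447-18811972), which joins the helicase when an origin fires, had 41.3, 37.2 and 40.4 CPM in the Control libraries and 25.9, 24.7 and 32.6 CPM in the Kdm6b-KO libraries (log2 fold change -0.51, SE 0.21, adjusted p = 0.291). All Kdm6b-KO values were under all Control values. Gins2, a subunit of its partner complex GINS, had 95.8, 64.5 and 70.9 CPM in the Control libraries and 85.4, 83.7 and 103 CPM in the Kdm6b-KO libraries (log2 fold change 0.23, adjusted p = 0.623), with overlap. Pcna (chr2:132249286-132253180), the sliding clamp of the replicative polymerases, had 159, 102 and 100.3 CPM in the Control libraries and 96.8, 87.0 and 90.9 CPM in the Kdm6b-KO libraries (log2 fold change -0.39, SE 0.21, adjusted p = 0.398). The groups did not overlap, but Control replicate 1 was far above the other Control libraries, which were close to the Kdm6b-KO values. Cdc45 overlaps the coding gene Ufd1, and Gins2 the coding gene Gse1.

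Among the kinetochore and checkpoint genes, 3 of 4 were lower in Kdm6b-KO without overlap, against 9.49% of all tested genes. On library totals only Cenpe of these stayed without overlap. This group too was formed with the values known. Cenpe (chr3:135212563-135273540), the kinesin that carries chromosomes to the spindle equator, had 108, 77.8 and 86.9 CPM in the Control libraries and 57.9, 53.3 and 44.6 CPM in the Kdm6b-KO libraries, 1.75-fold lower (log2 fold change -0.81, SE 0.20, adjusted p = 0.103). All Kdm6b-KO values lay below all Control values. Cenpf (chr1:189640606-189688107), a large kinetochore protein of G2 and mitosis, had 103, 82.3 and 96.0 CPM in the Control libraries and 76.1, 58.5 and 47.3 CPM in the Kdm6b-KO libraries (log2 fold change -0.63, SE 0.21, adjusted p = 0.186), also without overlap. Bub1 (chr2:127800197-127831859), a kinase of the spindle checkpoint, had 50.5, 52.0 and 79.1 CPM in the Control libraries and 45.5, 43.8 and 28.1 CPM in the Kdm6b-KO libraries (log2 fold change -0.64, SE 0.24, adjusted p = 0.248). Control replicate 3 was the high and Kdm6b-KO replicate 3 the low library for it. Bub1b, the checkpoint protein BubR1, had 59.9, 78.8 and 107 CPM in the Control libraries and 73.8, 66.0 and 82.1 CPM in the Kdm6b-KO libraries (log2 fold change -0.15, adjusted p = 0.795), and these values overlapped throughout.

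Spindle genes had negative log2 fold changes as well. Nusap1 (chr2:119618298-119650165), which bundles spindle microtubules, had 228, 199 and 234 CPM in the Control libraries and 163, 120.2 and 128 CPM in the Kdm6b-KO libraries, 1.61-fold lower (log2 fold change -0.69, SE 0.19, adjusted p = 0.130). Tpx2 (chr2:152847964-152895321), which activates Aurora A on the spindle, had 98.8, 80.3 and 96.7 CPM in the Control libraries and 64.0, 65.4 and 53.4 CPM in the Kdm6b-KO libraries (log2 fold change -0.59, SE 0.19, adjusted p = 0.170). Prc1 (chr7:80294445-80316259), which holds the midzone of the late spindle together, had 161, 174 and 199.8 CPM in the Control libraries and 150.4, 115 and 119 CPM in the Kdm6b-KO libraries (log2 fold change -0.48, SE 0.19, adjusted p = 0.271). In these 3 genes no Kdm6b-KO library reached a Control library, where 9.49% of all tested genes were lower without overlap. Kif11, the motor that separates the spindle poles, and Dlgap5, a microtubule binder, had log2 fold changes of -0.45 and -0.42, with no overlap, and Tacc3 one of -0.26, with overlap. On library totals only Nusap1 and Tpx2 of these spindle genes stayed without overlap. Nusap1 overlaps the coding gene Oip5 and Prc1 the coding gene Rccd1.

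Genes of chromosome structure and the chromosomal passenger complex had negative log2 fold changes. Top2a (chr11:98992947-99024199), the topoisomerase that untangles sister chromatids, had 455, 445 and 560.0 CPM in the Control libraries and 398, 322 and 296 CPM in the Kdm6b-KO libraries (log2 fold change -0.52, SE 0.21, adjusted p = 0.267). It was the mitosis member with the highest mean CPM, and its groups did not overlap. Mki67 (chr7:135689784-135716450), which coats mitotic chromosomes and is the usual marker of cycling cells, had 237, 135 and 178 CPM in the Control libraries and 123, 113 and 134 CPM in the Kdm6b-KO libraries (log2 fold change -0.57, SE 0.22, adjusted p = 0.244). Control replicate 1 was far above Control replicate 2, which nearly touched the highest Kdm6b-KO value. Birc5 (survivin), of the chromosomal passenger complex, had a log2 fold change of -0.49 and Aurkb, the kinase of that complex, one of -0.25, both with overlap.

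Mitotic cyclins, kinases and exit factors had log2 fold changes of both signs. Ccnb1 (chr13:100778739-100786486), cyclin B1, had 49.5, 35.2 and 49.1 CPM in the Control libraries and 37.1, 25.1 and 26.4 CPM in the Kdm6b-KO libraries (log2 fold change -0.60, SE 0.23, adjusted p = 0.259). Kdm6b-KO replicate 1 was above Control replicate 2, the only overlap. Its paralog Ccnb2 had 66.7, 90.6 and 102 CPM in the Control libraries and 100.4, 82.4 and 83.2 CPM in the Kdm6b-KO libraries (log2 fold change 0.03, SE 0.20, adjusted p = 0.960), with full overlap. Cdk1, the kinase that B cyclins activate, and Ccna2, cyclin A2, both had a log2 fold change of -0.22, with overlap. Aurka, the kinase that Tpx2 activates, had a log2 fold change of -0.41 without overlap. Plk1, Cdc20 and Ube2c, the last a ubiquitin-conjugating enzyme of the anaphase-promoting complex and Cdc20 its activator, had log2 fold changes of -0.01, 0.16 and 0.15, and their SEs of 0.30, 0.36 and 0.39 were among the largest of the 43 members, which spanned 0.18 to 0.39. Foxm1, a transcription factor of G2 genes, had 8.60, 9.40 and 9.79 CPM in the Control libraries and 10.2, 15.5 and 15.8 CPM in the Kdm6b-KO libraries (log2 fold change 0.58, SE 0.29, adjusted p = 0.372). It was the 1 member with all Kdm6b-KO values above all Control values, and Kdm6b-KO replicate 1 exceeded the highest Control library by less than 1 CPM. Foxm1 overlaps the coding gene Tex52, Aurka overlaps Cstf1, Ccna2 overlaps Exosc9 and Cdc20 overlaps Elovl1.

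Other genes of the same pathways, from lists that hold no member, were compared with the members. These lists too were chosen with earlier results of these data known. Over all tested genes, 0.461% were called and 50.1% had a negative log2 fold change. Of 46 further replication genes, 0 were called, 42 (91.3%) had a negative log2 fold change, and the median was -0.31. Wdhd1, a replisome scaffold, had 115, 162 and 145 CPM in the Control libraries and 65.9, 92.4 and 61.1 CPM in the Kdm6b-KO libraries (log2 fold change -0.95, SE 0.21, adjusted p = 0.0734), and Pola1, the catalytic subunit of polymerase alpha, had 81.9, 79.0 and 86.8 CPM in the Control libraries and 50.1, 52.9 and 37.4 CPM in the Kdm6b-KO libraries (log2 fold change -0.82, SE 0.20, adjusted p = 0.0891). Neither overlapped between the groups, and both were called without Control replicate 1 (adjusted p = 0.00991 and 0.0345, ranges 0.00507 to 0.358 and 0.0120 to 0.366). Of 54 further mitosis genes, 49 (90.7%) had a negative log2 fold change, the median was -0.45, and 1 was called. Summed over the list, the further replication genes had 4569, 4893 and 5084 CPM in the Control libraries against 3621, 3789 and 4081 CPM in those of Kdm6b-KO mice, and the further mitosis genes 4068, 3986 and 4573 and 3438, 2939 and 2825 CPM. With TMM scaling no Kdm6b-KO sum reached a Control sum in either list. On library totals this held for the further replication genes but not for the further mitosis genes, where Kdm6b-KO replicate 1 had 3598 and Control replicate 2 had 3552 CPM.

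The called gene was Hmmr (chr11:40701388-40733464), which encodes a spindle protein that also binds hyaluronan. It fell from 97.2 ± 13.5 to 46.8 ± 8.19 CPM (SD, n = 3 each; log2 fold change -1.05, SE 0.20, adjusted p = 0.0323), with 113, 88.4 and 90.4 CPM in the Control libraries and 56.3, 42.6 and 41.6 CPM in the Kdm6b-KO libraries. No Kdm6b-KO library reached a Control library. The call was lost without Control replicate 2 (adjusted p = 0.0514) and without Kdm6b-KO replicate 2 or 3 (0.192 and 0.250), and under limma-voom and library totals (0.0534 and 0.0585), within a range of 0.000649 to 0.250. Hmmr lies on chromosome 11, 28.7 Mb from Kdm6b.

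Regulators of these genes were taken from 2 further lists. Of 17 E2F, pocket protein and MuvB genes, 0 were called, against 0.461% of all tested genes. In this list 10 (58.8%) had a negative log2 fold change, against 50.1% of all tested genes, and the median was -0.11. Tfdp2, a partner subunit of E2F, had 104, 184 and 133 CPM in the Control libraries and 106, 109 and 80.9 CPM in the Kdm6b-KO libraries (log2 fold change -0.51, SE 0.22, adjusted p = 0.311), and Lin9, a MuvB subunit, had 34.2, 35.6 and 37.5 CPM in the Control libraries and 26.2, 32.0 and 26.5 CPM in the Kdm6b-KO libraries (log2 fold change -0.34, SE 0.21, adjusted p = 0.475). The Tfdp2 groups overlapped and the Lin9 groups did not. Of 14 kinases, phosphatases and ligase adaptors that time S phase and mitosis, 0 were called and 9 (64.3%) were negative, with a median of -0.17. Wee1, which inhibits Cdk1, had 101, 107 and 80.8 CPM in the Control libraries and 58.6, 72.0 and 59.8 CPM in the Kdm6b-KO libraries (log2 fold change -0.60, SE 0.19, adjusted p = 0.172), without overlap. Fzr1, the activator of the anaphase-promoting complex in G1, had 22.9, 16.8 and 15.9 CPM in the Control libraries and 23.4, 25.5 and 35.8 CPM in the Kdm6b-KO libraries (log2 fold change 0.62, SE 0.26, adjusted p = 0.291), with all Kdm6b-KO values above all Control values.

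Several members share the chromosome of Kdm6b. Aurkb (chr11:69045624-69051664) lies 0.347 Mb from Kdm6b (chr11:69398508-69420367), Cdc6 and Top2a lie 29.5 and 29.6 Mb away, and Tk1 and Birc5 both 48.4 Mb away. These 5 members had log2 fold changes from -0.52 to -0.25, with a median of -0.38, and the 38 members on other chromosomes had a median of -0.35. Aurkb, the nearest, had 44.4, 42.4 and 76.4 CPM in the Control libraries and 46.1, 43.3 and 48.3 CPM in the Kdm6b-KO libraries (log2 fold change -0.25, SE 0.24, adjusted p = 0.662), and apart from Control replicate 3 all its values were between 42.4 and 48.3 CPM. Without Control replicate 3 its log2 fold change was 0.082.

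The mean number of members with an ATAC peak was the same in both groups of libraries. A peak, as called by the authors in each library, was counted when it reached within 1 kb of either end of the gene. Such a peak was found for 37, 38 and 40 of the 43 members in the libraries titled Control and for 36, 39 and 40 in those titled 6bKO, a difference in means of 0 (exact permutation test, two-sided, p = 1, where 3 against 3 cannot go below 0.10). The shares, 83.7% to 93.0%, stood beside 72.8% to 83.7% of 13436 tested genes with a position. In all 6 libraries a peak was found for 35 members, against 64.6% of those genes. Peaks in all 3 libraries of one title and in none of the other were found for 0 members, against 0.424% of the genes. The lists held 44739 to 69729 peaks, and the depth behind them is unknown.

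The members' peaks ranged from among the strongest of a list to none. Of the 35 members with a strand in the promoter table, 29 had a peak within 1 kb of the start in all 6 libraries, and 0 had one at the 3′ end in all 6. The strongest peak of Gins2 stood at the 99.8th to 99.96th percentile of its list by the authors' −log10 q, that of Ccna2 at the 99.2nd to 99.9th and that of Cenpf at the 99.2nd to 99.5th. Gins2 and Ccna2 have no strand in the promoter table and overlap the coding genes Gse1 and Exosc9. Their peaks therefore cannot be placed at the start of the member rather than at the other end or the neighbour. Tyms had a peak in all 6 libraries at the 44.7th to 67.2nd percentile, and Rrm2 one at the 51.3rd to 83.6th. Foxm1, also without a strand and overlapping Tex52, spanned the 5.48th to 72.5th percentile. Pcna, Mcm4 and Aurka had no peak within 1 kb of an end in any of the 6 lists, where 11.9% of the tested genes had none, although all 3 had CPM values above 30 in every RNA library. Tk1 had a peak in Control replicate 3 and 6bKO replicate 3, Tacc3 in those and 6bKO replicate 2, Bub1 and Aurkb in all libraries but 6bKO replicate 1, and Plk1 in all but Control replicate 1.

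**Figure D4:**
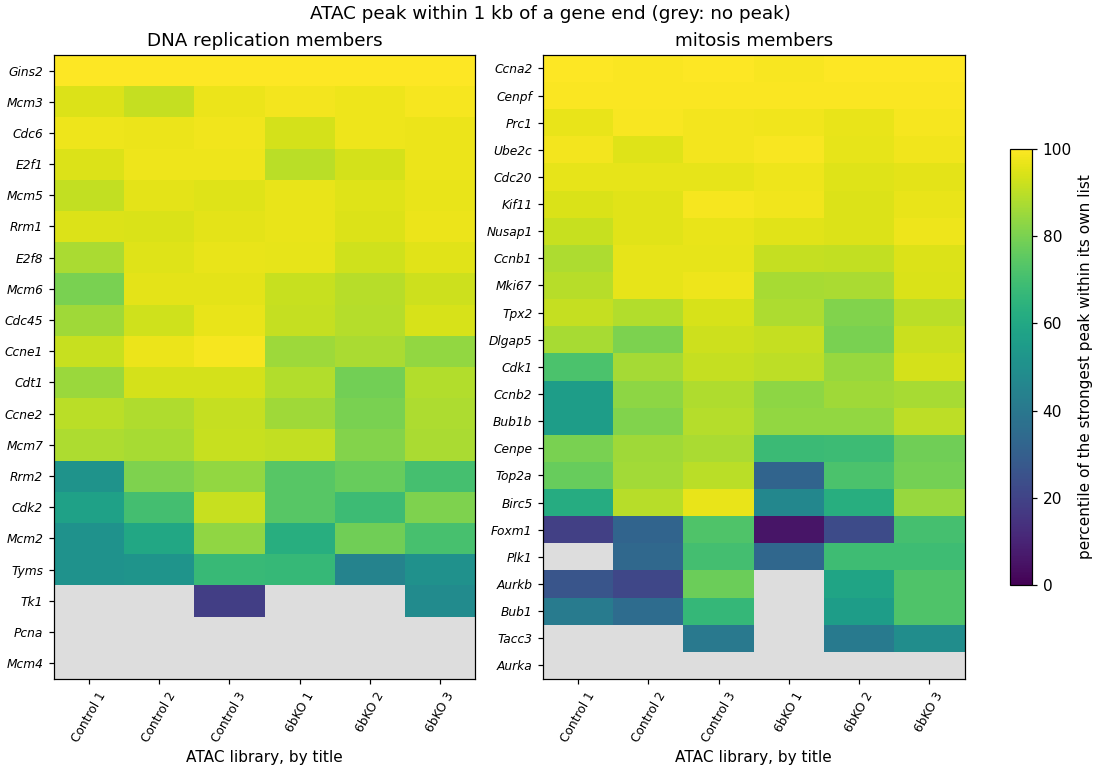
Strongest ATAC peak within 1 kb of either gene end for each DNA replication gene (left) and mitosis gene (right) in the 6 libraries, by title; colour is the percentile of the peak's −log10 q within its own list and grey is no peak. A peak is present in all 6 columns for 35 genes, and Pcna, Mcm4 and Aurka are grey throughout.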

How the data were processed

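The authors deposited 1 table of raw read counts, by Ensembl gene ID, for each RNA library. The submitters' processing notes name HTSeq 0.8.0, featureCounts 1.4.5 of Subread, STAR 2.0.4 and Partek 6.6, without roles, and the mm10 build. Closing lines of unassigned reads were left out, and 16.5% to 19.7% of each file's reads were assigned to genes. For ATAC, peaks were deposited separately for each library, and MACS2, BWA 0.7.16a and cutadapt 1.16 are named in the same notes. In these deposited lists the authors' score, the fold enrichment (a ratio) and the −log10 p and q are each peak's own, and only q was used, to rank or filter within a list.

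Symbols came from a table of gene IDs (49326 of 49671 matched) and positions from a GRCm38.p6 RefSeq table. The genotype effect on each gene was tested in edgeR 4.0.16 under R 4.3.3 (filterByExpr, TMM, robust glmQLFit, glmQLFTest on genotype, two-sided), with Benjamini-Hochberg adjustment over all 15185 genes and a threshold of 0.05. The SE was taken as |log2 fold change| over the square root of F. DESeq2 1.42.0 and limma 3.58.1 were alternatives. The code was tested on simulated data. Intervals between libraries rest on 3 replicates per group, and replicate pairs differed by more than sampling noise (chi-square per degree of freedom of at least 17.1).

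Members and lists were chosen with earlier results of these data known. The text names with full values the 8 members of each set with the smallest p and the 3 with the highest mean CPM, and from each other list the called genes or, with none, the 2 with the smallest p. Members outside that rule are given more briefly, and those among them with values per library (Tk1, Ccne1, Cdk2, E2f1, Gins2, Bub1b, Ccnb2, Foxm1 and Aurkb) were chosen after their values were seen.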

Additional observations from a re-analysis of the deposited data

How the results depend on the processing

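The medians of both sets stayed negative under each of 15 alternatives, from -0.42 to -0.18 for the replication and from -0.50 to -0.27 for the mitosis genes. Of the 43 members, 8 with small log2 fold changes changed sign under some alternative, and the others did not. When each library was left out in turn, E2f1 ran from -0.075 to 0.44, Mcm6 from -0.015 to 0.38, Aurkb from -0.40 to 0.082, Bub1b from -0.32 to 0.093, Cdc20 from -0.13 to 0.75, Ube2c from -0.32 to 0.48, Ccnb2 from -0.12 to 0.17 and Plk1 from -0.29 to 0.30. Plk1, at -0.01 in the main analysis, was 0.13 on library totals, 0.022 with no filter, 0.0079 with limma-voom and 0.061 with the replicate block. The count of members called was 0 in the main analysis, 4 with no filter on low counts and 5 with DESeq2, and 0 to 3 when each library was left out in turn. The cause was not tested. The count over all genes was 70, and it was 576 with no filter, 438 with DESeq2, 42 with limma-voom, 19 without genes on chromosome 11, and 20 to 519 when each library was left out. The 519 came without Control replicate 1; it was 46 without Control replicate 2, 161 without Control replicate 3, 24 without Kdm6b-KO replicate 2 and 20 without Kdm6b-KO replicate 3. On library totals the replication sum of Control replicate 2 was 2642 CPM in place of 2964, both summed levels overlapped between the groups, and 6 in place of 18 members lay below Control without overlap. Leaving out the 13 members that overlap another coding gene, chosen after seeing the data, gave medians of -0.34 and -0.45, with 25 of 30 negative.

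Deviations of same-numbered libraries from their group means correlated at 0.032, 0.161 and -0.127, so the numbers were not taken as pairs. With a replicate block, 88 genes and 0 members were called, 32 members were negative, the medians were -0.32 and -0.42, and the ATAC difference remained 0 (exact p = 1, where the smallest possible is 0.25). With 3 pooled libraries per group, each pool of 6 mice, the SE of a member was 0.18 to 0.39 on the log2 scale, which limits what single genes can show.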
